A study of Mus musculus with 2 samples.

Results

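Long intergenic non-coding RNAs (lincRNAs) were examined in whole testes of 9-day-old (P9) mice. A lincRNA was taken as a gene to which the GENCODE M21 annotation gives that biotype. It was kept where the average RPKM of a control and a mutant library was at least 1. RPKM stands for reads per kilobase of transcript, scaled to a total of reads per library. Small nucleolar RNA hosts named *Snhg*, together with *Gas5* and the imprinted or placental genes *H19*, *Meg3*, *Rian*, *Mirg* and *Peg13*, were left out by symbol. This went by symbol only, and 4 lincRNAs with a small nucleolar RNA gene inside were kept. The deposited values covered 39695 genes, and 1654 of these were lincRNAs, of which 611 were at 0 in both libraries, 220 reached the mean RPKM of 1 and 213 remained after 7 were removed by symbol. The members were thus chosen by the same 2 RPKM values that are compared below, and a lincRNA high in 1 library alone could enter: 7 members were below 1 in the control and 8 were below 1 in the mutant library, whereas none was at 0 in either.

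A pair of RNA-seq libraries was available, 1 per group. The mutant library came from males labelled Bcas2F/-;V-cre, which carry 1 floxed and 1 deleted allele of *Bcas2* and a *Vasa-Cre* transgene whose recombinase acts in germ cells. The control males were *Bcas2* F/- without the transgene, so that both groups carried the deleted allele. The samples were given the strain C57BL/6, although the methods of the study describe a mixed 129 and C57BL/6 background, and the number of mice behind each library was not given in the sources used here. With 1 library per group there was no replicate, no difference could be tested, and p-values are not given.

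LincRNAs are transcribed from their own loci between protein-coding genes. Like mRNAs, many are spliced and polyadenylated, but they hold no long open reading frame, and they are usually found at lower levels and in fewer tissues than mRNAs. The testis is known as the organ in which the largest variety of lincRNAs is transcribed, mostly in meiotic and postmeiotic germ cells. BCAS2 belongs to the Prp19-associated complex of the spliceosome, the machine that removes introns from coding and non-coding transcripts alike.

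The RPKM values had been divided by a total of 19918750 reads in the control and 19331687 in the mutant library, as worked out from the values themselves. These totals are the denominators of the deposited values and not the number of mapped reads, and whether a counted read was a single read or a read pair was not given. *Bcas2* itself, on chromosome 3, was at 39.5 RPKM in the control and 25.7 in the mutant library. All 7 germ cell markers examined (such as *Ddx4*, *Dazl* and *Stra8*) were lower in the mutant library, with their summed level at 455 and 340 RPKM. All 5 Sertoli cell markers (*Sox9*, *Amh*, *Wt1*, *Gata4* and *Clu*) were higher, with sums of 3031 and 3308 RPKM. Of 5 Leydig cell markers, 3 were higher, with sums of 381 and 425 RPKM. Peritubular markers were 1 of 3 higher (sums 489.8 and 457), endothelial markers 1 of 3 (33.6 and 32.3) and macrophage markers 0 of 3 (17.4 and 15.1). Of 3 red cell markers 1 was higher (764 and 761), and *Slc4a1*, the anion exchanger of red cells, was at 15.7 and 0.61 RPKM. No marker listed for these cell types was at 0. In whole testes, fewer cells of a type and less RNA per cell cannot be told apart. With 1 library per group, a difference between libraries cannot be told apart from them either. By RT-PCR of P9 testes the study reported similar mRNA of *Mvh* (*Ddx4*), *c-kit*, *Dazl* and *Stra8* in both groups, and lower *Scp3* (*Sycp3*) in the mutant. The part of the marker shifts in the lincRNA values below was not tested.

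The sequences that bear on the results are given first. Inside 10 of the lincRNA genes the RefSeq table (GRCm38.p6) placed microRNAs (miRNAs), with 35 mature sequences and 30 different seeds. The seed, bases 2 to 8 counted from the 5′ end, is the part of a miRNA that pairs with its targets, and it is shown in capitals. *Gm2044*, the second most abundant lincRNA, holds both arms of miR-202, a miRNA known for its expression in the gonads. *6720427I07Rik* holds let-7 miRNAs, which are known for rising as cells differentiate. *Mir9-3hg* holds miR-9, best known from neural progenitors, and *Mir17hg* holds the miR-17-92 cluster, known for promoting proliferation.
mmu-miR-202-5p: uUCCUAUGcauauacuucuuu
mmu-miR-202-3p: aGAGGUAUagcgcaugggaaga
mmu-let-7a-5p: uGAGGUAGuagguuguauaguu
mmu-let-7d-5p: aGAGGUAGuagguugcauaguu
mmu-let-7f-5p: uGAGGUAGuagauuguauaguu
mmu-miR-9-5p: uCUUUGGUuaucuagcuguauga
mmu-miR-9-3p: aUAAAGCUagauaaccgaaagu
mmu-miR-17-5p: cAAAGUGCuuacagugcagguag
mmu-miR-20a-5p: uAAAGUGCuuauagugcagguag
mmu-miR-18a-5p: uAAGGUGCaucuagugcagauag
mmu-miR-19a-3p: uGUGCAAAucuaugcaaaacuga
mmu-miR-19b-3p: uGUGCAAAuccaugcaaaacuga
mmu-miR-92a-3p: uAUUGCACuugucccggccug

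The 3 let-7 miRNAs of *6720427I07Rik* share 1 seed. The seed of miR-202-3p matches theirs over its first 6 bases and differs at the last. In the miR-17-92 cluster, miR-17-5p and miR-20a-5p share a seed, as do miR-19a-3p and miR-19b-3p, whereas miR-18a-5p and miR-92a-3p have seeds of their own.

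*Malat1* and *Neat1* are neighbouring genes on chromosome 19. *Malat1* and the long form of *Neat1* are known to end in a genomically encoded A-rich tract and not in an ordinary poly(A) tail. The tract folds into a triple helix with U-rich stretches upstream. For the longest annotated transcript of each gene, 60 bases are shown as DNA letters. The capitals mark the last 11 of them, which are a part of this tract. In *Malat1* the run of A begins before the capitals. These windows are bases 6632 to 6691 of 6983 for *Malat1* and 20712 to 20771 of 20771 for *Neat1*. Beside them stand the last 60 bases of the *Gm2044* transcript, bases 852 to 911, in which the capitals mark the polyadenylation signal AATAAA, 11 bases before the end.
Malat1: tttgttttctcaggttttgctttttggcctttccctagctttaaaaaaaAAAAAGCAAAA
Neat1: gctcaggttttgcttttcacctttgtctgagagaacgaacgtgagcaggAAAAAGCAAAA
Gm2044: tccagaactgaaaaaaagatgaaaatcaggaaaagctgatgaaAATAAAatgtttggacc

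The 11 bases in capitals occurred in the longest transcript of 3 of the 213 lincRNAs, the third being *Gm16701*, which was named after its values were seen. AATAAA lay within the last 50 bases of 89 of the 213 (41.8%), compared with 60.3% of the 13004 protein-coding genes and 41.4% of the 239 antisense genes that reached a mean RPKM of 1.

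The lincRNAs were on balance slightly higher in the mutant library. The change of a gene was taken as log2 of (RPKM + 1) in the mutant over (RPKM + 1) in the control library, so that positive values stand for a higher level in the mutant. Its median over the 213 lincRNAs was 0.13 (SD across genes 0.28), with quartiles at -0.03 and 0.27 and a range from -0.88 to 0.95. Over all 14831 genes that passed the same filter the median was 0.02. A higher level in the mutant library was found for 148 of the 213 lincRNAs (69.5%), compared with 53.7% of all genes, and 65 were lower. In the plot of change against level, most lincRNAs lay near the left edge and above the line of no change.

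**Figure D1:**
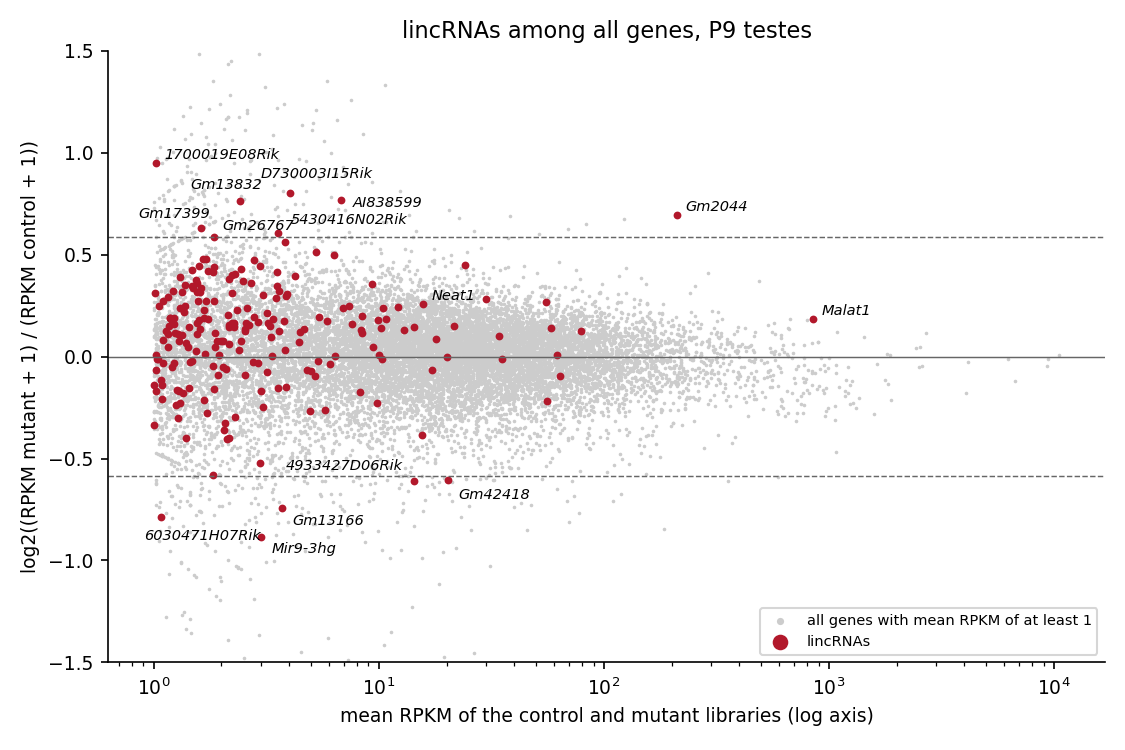
Change between the mutant and control libraries (vertical axis, log2 scale with a pseudocount of 1) against mean RPKM (horizontal log axis) for all 14831 genes that passed the filter (grey) and the 213 lincRNAs (red), with dashed lines at 1.5-fold. Of the lincRNAs 5 lie below the lower and 8 above the upper dashed line, and 37 other genes fall outside the vertical range of 1.5 in either direction.

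The summed level pointed the same way. All lincRNAs together held 2153 RPKM in the control and 2439 in the mutant library, a log2 ratio of 0.18 between the sums. *Malat1* alone held 37.1% of the sum in the control and 37.2% in the mutant, and without it the sums were 1354 and 1532 RPKM with a log2 ratio of 0.18. The lincRNAs accounted for 0.337% of the RPKM summed over all genes in the control and 0.389% in the mutant library, and for 76156 and 83608 reads.

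The median change was above that of protein-coding genes in each class of level. In the class with a mean RPKM of 1 to 2, the 92 lincRNAs had a median change of 0.12, against -0.01 for protein-coding genes of the same class. Between 2 and 5 RPKM, 71 lincRNAs had a median of 0.15 against 0.01. Between 5 and 20 RPKM, 35 lincRNAs had a median of 0.13 against 0.02, and at 20 RPKM or more 15 lincRNAs had a median of 0.13 against 0.00. Over all classes the median of the mean RPKM was 2.23 for lincRNAs and 17.2 for protein-coding genes, and within a class the lincRNAs were still the less deeply counted, with a median of 348 reads against 982 between 5 and 20 RPKM. Antisense RNAs, the other class of long non-coding RNA compared, had a median of 0.12 over 239 genes, with 163 higher in the mutant library. The curves of lincRNAs and antisense RNAs lay close together in the plot by biotype.

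**Figure D2:**
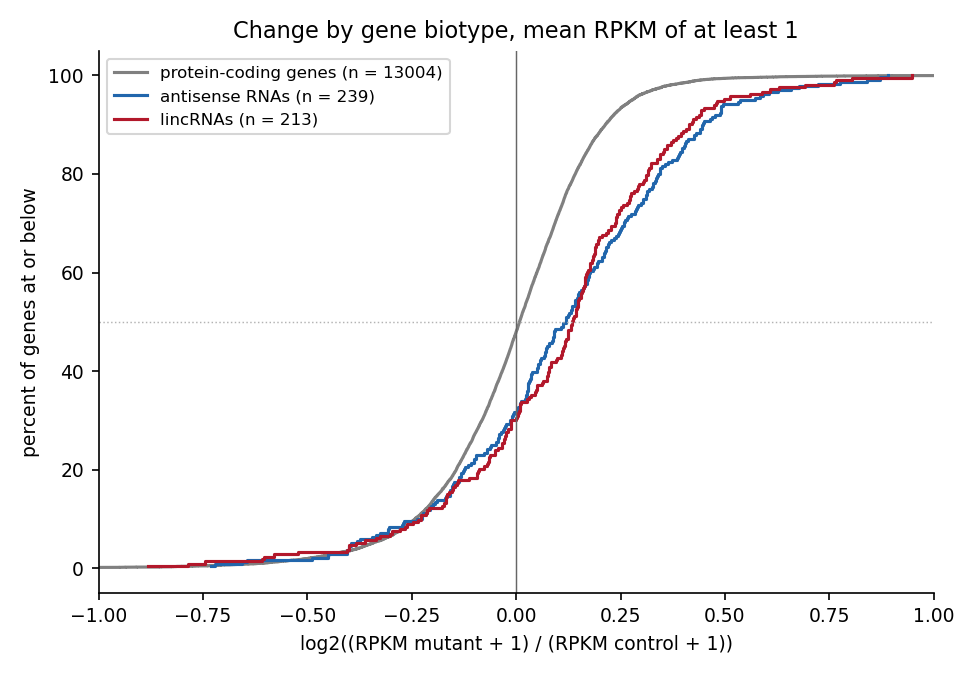
Cumulative percent of genes (vertical axis) at or below each change (horizontal axis, log2 scale with a pseudocount of 1, drawn from -1 to 1) for lincRNAs (red, n = 213), antisense RNAs (blue, n = 239) and protein-coding genes (grey, n = 13004). The median, where a curve crosses 50%, was 0.13 for lincRNAs, 0.12 for antisense RNAs and 0.01 for protein-coding genes.

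Large differences were few. More than 1.5-fold lower in the mutant library were 5 lincRNAs (2.35%), compared with 1.69% of all genes. More than 1.5-fold higher were 8 lincRNAs (3.76%), compared with 1.57% of all genes. Of the antisense RNAs 1.67% were past 1.5-fold lower and 4.18% higher. At a mean RPKM of 1 to 2, 1.09% of lincRNAs and 2.8% of protein-coding genes were lower. These shares were 2.82% and 2.74% at 2 to 5, and 2.86% and 1.23% at 5 to 20. At 20 or more, with 15 lincRNAs, they were 6.67% and 0.508%. In the same order, the higher shares were 3.26% and 1.59%, 4.23% and 0.934%, 2.86% and 0.301%, and 6.67% and 0.0847%. No lincRNA was past 2-fold on this scale in either direction, where 0.378% of all genes were lower and 0.425% were higher. The pseudocount of 1 narrows the change of low genes: with a pseudocount of 0.1 the counts past 1.5-fold became 9 lower and 21 higher, compared with 3.08% and 3.06% of all genes. With a pseudocount of 0.01 they became 11 lower (5.2%) and 26 higher (12.2%), compared with 3.27% and 3.31% of all genes. The median level in the control library was 2.10 RPKM for the lincRNAs and 14.1 for all genes.

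The depth behind these values differed widely, since a lincRNA had between 11 and 62415 reads in both libraries together, with a median of 126, and 13 had fewer than 30. For each gene the 95% exact (Clopper-Pearson) interval of the ratio without pseudocount was computed from the recovered reads. It covers counting error only, and not the spread between animals or libraries. The interval lay below no change for 11 lincRNAs (5.16%), while it did so for 17.9% of the genes with recovered reads. It lay above no change for 40 lincRNAs (18.8%), against 19.9% of those genes. Since the median gene had 1213 reads and the median lincRNA 126, the 2 sets of intervals also differed in width.

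The most abundant lincRNA was *Malat1* (chr19:5795690-5802672, minus strand), a nuclear RNA of the splicing-factor-rich speckles. It was at 798 RPKM in the control and 907 in the mutant library, from 29680 and 32735 reads, a change of 0.18 with a counting interval of 0.16 to 0.21. *Neat1* (chr19:5824708-5845478, minus strand), the scaffold of nuclear paraspeckles, was at 14.2 and 17.2 RPKM from 2345 and 2748 reads, a change of 0.26 with an interval of 0.19 to 0.35. Both of these nuclear RNAs, whose longest annotated transcripts carry the A-rich tract shown above, were thus higher in the mutant library by less than 1.5-fold. The *Neat1* value is that of a gene with 4 annotated transcripts, and the longest was not told apart from the others.

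*Gm2044* (ENSMUSG00000085354, chr7:139957005-139958039, minus strand), the miR-202 host with 2 exons, gave the most deeply counted difference among the lincRNAs past 1.5-fold. It was at 161 RPKM in the control and 260.2 in the mutant library, from 2915 and 4582 reads. The change was 0.69 with an interval of 0.63 to 0.76. The miR-202 hairpin lies within an exon of this transcript, but the row of the hairpin gene *Mir202* was listed at 0 in both libraries, and mature miRNAs are too short for these libraries to measure. The nearest protein-coding gene, *Utf1*, 11893 bp away, was at 1.92 and 1.86 RPKM.

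The other abundant lincRNAs differed less. *AU020206* was at 75.7 RPKM in the control and 82.6 in the mutant library, a change of 0.13. *1700020I14Rik* was at 55.4 and 61.3, a change of 0.14, while *Oip5*, a centromere gene whose locus lies 2010 bp away on the other strand, was at 7.86 and 5.86. *AI480526*, whose start lies 527 bp from that of the histone methyltransferase gene *Setd1b* on the opposite strand, was at 50.3 and 60.6, a change of 0.27. *Setd1b* itself was at 5.69 and 7.07, a change of 0.27 also. In this pair the lincRNA and its divergent neighbour were higher in the mutant library by a similar amount.

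Among the 10 most abundant, *Gm26809* and *Gm12840* were lower with counting intervals below no change. *Gm26809* was at 66.2 RPKM in the control and 62.0 in the mutant library, a change of -0.09. *Gm12840* was at 59.97 and 51.5, a change of -0.22. The *Gm12840* transcript resembles that of *Gm26809* (at least 90% identity over at least 50% of the query), so their reads may not be separable. *1810058I24Rik* (61.9 and 62.4 RPKM), *Tmem250-ps* (35.5 and 35.2) and *Gm53* (32.9 and 35.3, near *Hoxb9*) had counting intervals that included no change. RefSeq lists the first 2 of these 3 as protein-coding.

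**Figure D3:**
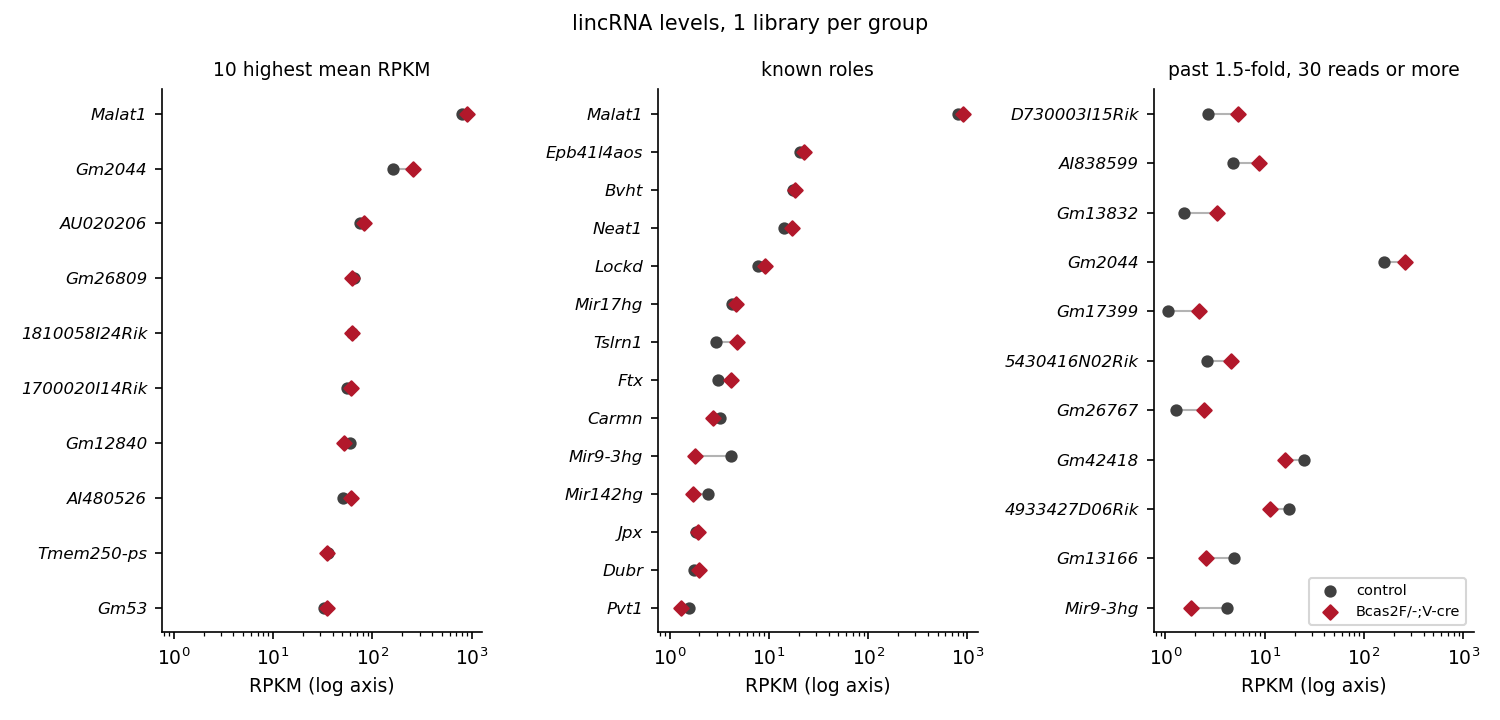
RPKM (horizontal log axis) of the 10 most abundant lincRNAs, the 14 with known roles and the 11 past 1.5-fold with at least 30 reads, in the control (grey circles) and mutant (red diamonds) libraries, 1 library per group. *Gm2044* is the only one of the 10 most abundant whose libraries differ by more than 1.5-fold, at 161 and 260.2 RPKM.

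From a hand-written list of non-coding RNAs with known roles, 14 were matched by symbol among the lincRNAs. A lincRNA annotated under another name than the listed one was not counted. Of these 14, 10 were higher and 4 lower in the mutant library, with a median change of 0.12. Among all 213 lincRNAs 69.5% were higher, and among all genes 53.7%. Past 1.5-fold was 1 of the 14. Of the 213 lincRNAs 2.35% were past it lower and 3.76% higher, and of all genes 1.69% and 1.57%. The X inactivation centre was represented by *Jpx* and *Ftx*, both known as activators of *Xist*. *Jpx* was at 1.84 RPKM in the control and 1.93 in the mutant library, from 54 and 55 reads. *Ftx*, which also holds miR-374b and miR-421, was at 3.09 and 4.11, from 150 and 194 reads. Its change was 0.32, and the plain log2 ratio was 0.41 with an interval of 0.10 to 0.73. *Xist* itself, the RNA that coats the inactive X in females, was below the filter at 0.235 and 0.276 RPKM.

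The testis-specific X-linked lincRNA *Tslrn1* was at 2.92 RPKM in the control and 4.78 in the mutant library, from 39 and 62 reads. Its change was 0.56, and the plain log2 ratio was 0.71 with an interval of 0.11 to 1.33. All 7 X-linked lincRNAs were higher in the mutant library, as were 68.4% of the 206 autosomal lincRNAs and 58.8% of all X-linked genes. The median of the 7 was 0.13, close to the 0.14 of the autosomal lincRNAs. The median of all 607 X-linked genes was 0.04.

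Among the lincRNAs tied to cell growth, *Lockd*, which lies 3579 bp from the cell cycle inhibitor gene *Cdkn1b*, was at 7.76 RPKM in the control and 9.05 in the mutant library. *Pvt1*, 47612 bp from *Myc*, was at 1.56 and 1.30, and *Dubr* was at 1.76 and 2.00. *Epb41l4aos* was at 20.4 and 22.7 RPKM. The counting intervals of these 4 included no change, as did those of the muscle and heart lincRNAs *Bvht* (17.3 and 18.4) and *Carmn* (3.23 and 2.77).

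The miRNA hosts did not move together. Over the 12 lincRNAs with a miRNA gene inside, 6 were higher and the median change was 0.02. *Mir17hg*, host of the miR-17-92 cluster, was at 4.25 RPKM in the control and 4.70 in the mutant library from 299 and 321 reads, a change of 0.12 with an interval that included no change. *6720427I07Rik*, the let-7 host, which was named after its values were seen, was at 8.05 and 10.6 RPKM from 738 and 940 reads. Its change was 0.35, and the plain log2 ratio was 0.39 with an interval of 0.25 to 0.53. *Mir142hg*, host of the blood cell miRNA miR-142, was at 2.43 and 1.73 from 13 and 9 reads only.

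*Mir9-3hg* (ENSMUSG00000097023, chr7:79500026-79534403, plus strand) had the most negative change of any lincRNA. It was at 4.17 RPKM in the control and 1.81 in the mutant library, from 100 and 42 reads. The change was -0.88, and without the pseudocount the log2 ratio was -1.21 with an interval of -1.76 to -0.67. Its nearest protein-coding gene, *Polg*, encoding the mitochondrial DNA polymerase, was at 50.2 and 55.6 RPKM.

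The others that were lower by more than 1.5-fold had less in common. *4933427D06Rik*, a spliced lincRNA of chromosome 6, was at 17.6 RPKM in the control and 11.2 in the mutant library from 528 and 326 reads. Its change was -0.61, and the plain log2 ratio was -0.65 with an interval of -0.86 to -0.45. *Gm13166* was at 4.93 and 2.54 from 42 and 21 reads, a change of -0.74, and its transcript resembles those of *Abcg2* and *Gm13236*. *6030471H07Rik*, named after its values were seen because it has only 16 and 5 reads, was at 1.63 and 0.53 RPKM.

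*Gm42418* (chr17:39846958-39848788) was at 24.8 RPKM in the control and 15.9 in the mutant library from 903 and 564 reads, a change of -0.61. This single-exon locus is known for collecting reads of ribosomal RNA, and RefSeq lists it as a pseudogene. *Gm26917*, which lies next to it and was named after its values were seen, was at 2.43 and 1.67 RPKM from 84 and 56 reads. Both were therefore lower in the mutant library, and the share of ribosomal RNA left in each library was not tested as a part of this difference. Without the 2 genes the median over the lincRNAs was 0.14 and the number past 1.5-fold lower was 4.

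Of the lincRNAs higher by more than 1.5-fold, *D730003I15Rik* (ENSMUSG00000073478, chr1:191224454-191226140, plus strand) had the largest change with at least 30 reads. It was at 2.66 RPKM in the control and 5.39 in the mutant library from 58 and 114 reads, a change of 0.80 and the interval of its plain log2 ratio began at 0.55. *Atf3*, a stress-induced transcription factor gene that lies 6415 bp away on the opposite strand, was at 15.7 and 8.48 RPKM from 390 and 205 reads, a change of -0.81. The lincRNA and its nearest coding gene thus differed in opposite directions.

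*AI838599* of chromosome 4 was at 4.75 RPKM in the control and 8.78 in the mutant library from 92 and 165 reads, a change of 0.77. *5430416N02Rik* was at 2.63 and 4.53 from 107 and 179 reads, a change of 0.61. *Gm26767* was at 1.28 and 2.43 from 114 and 210 reads, a change of 0.59. For these 3 the counting interval lay above no change, with the lowest bound at 0.43 on the plain log2 scale.

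The remaining ones rested on few reads. *Gm17399*, whose start is 54 bp from that of the mitochondrial assembly gene *Cmc1* on the opposite strand, was at 1.06 RPKM in the control and 2.19 in the mutant library from 25 and 50 reads, whereas *Cmc1* was at 17.1 and 16.95. *Gm13832*, which shares exon bases with *4930401G09Rik*, was at 1.54 and 3.30 from 12 and 25 reads. *1700019E08Rik*, named after its values were seen, had the largest change of all, 0.95, but from 4 and 17 reads (0.38 and 1.66 RPKM).

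**Figure D4:**
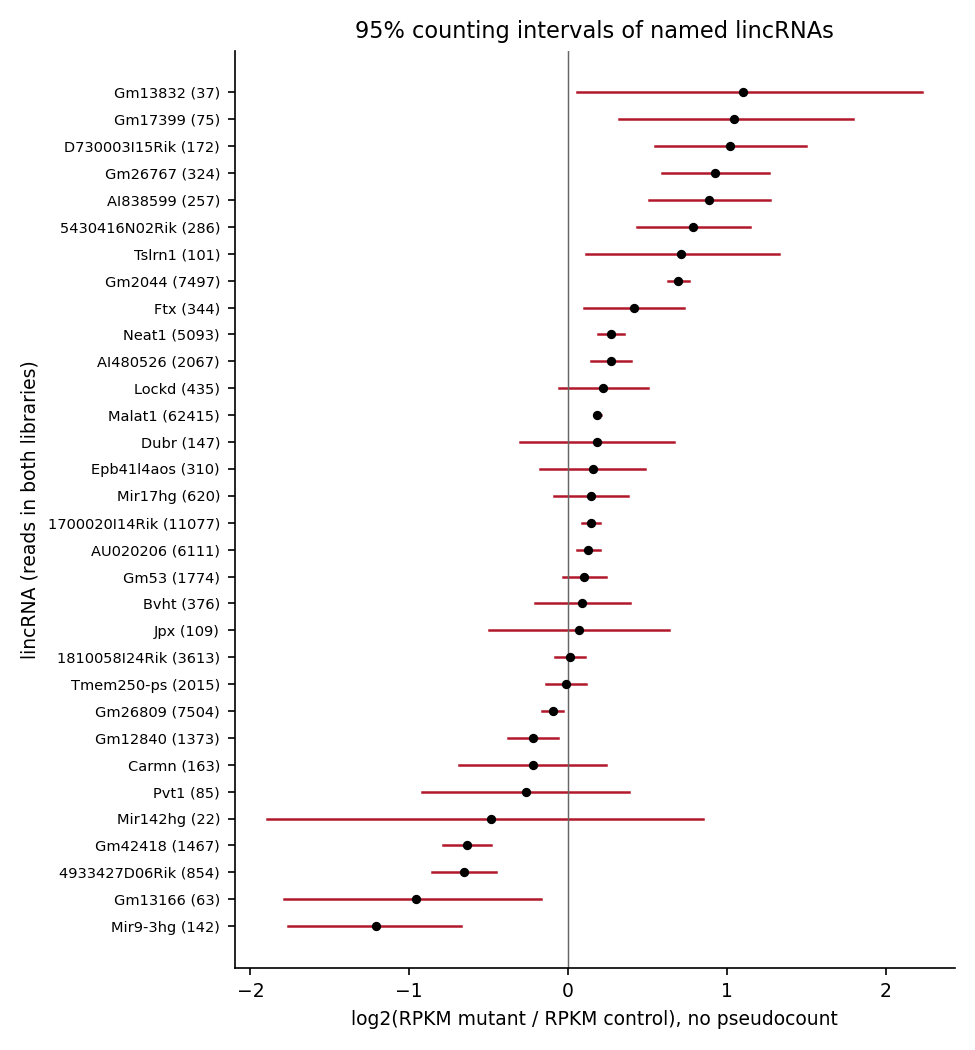
Log2 ratio of RPKM without pseudocount (points) and its 95% counting interval (red lines) for the named lincRNAs, with the reads of both libraries together in brackets. The intervals of *Mir9-3hg* (-1.76 to -0.67) and *Gm2044* (0.63 to 0.76) lie away from 0, and that of *Mir142hg*, with 22 reads, spans it.

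The promoters of the lincRNAs with the most negative and the most positive change on at least 30 reads are shown, each from 250 bases before to 50 after the start that RefSeq gives. They are at chr7:79499776-79500075 for *Mir9-3hg* and chr1:191224204-191224503 for *D730003I15Rik*, both on the plus strand of GRCm38.p6. Capitals mark every match, on either strand, to any of 7 motifs. They were the GC box with the letters GGGCGG, which binds SP1-like factors, and the CCAAT box, named by its letters, which binds the factor NFY. The E-box was searched as CACGTG, the site of MYC and related proteins. The cAMP response element was searched as TGACGTCA, the site of CREB. The AP-1 motif, bound by FOS and JUN proteins, was searched as TGANTCA. The last were the TATA box with the letters TATAAA and the MYB motif with AACNGTT, and no 2 of the matches shown overlap.
Mir9-3hg: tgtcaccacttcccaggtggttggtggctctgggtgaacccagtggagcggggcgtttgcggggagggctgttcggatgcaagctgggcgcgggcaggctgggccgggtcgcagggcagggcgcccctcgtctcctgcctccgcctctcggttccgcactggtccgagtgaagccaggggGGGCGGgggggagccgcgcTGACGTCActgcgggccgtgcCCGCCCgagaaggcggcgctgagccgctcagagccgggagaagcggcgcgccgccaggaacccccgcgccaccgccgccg
D730003I15Rik: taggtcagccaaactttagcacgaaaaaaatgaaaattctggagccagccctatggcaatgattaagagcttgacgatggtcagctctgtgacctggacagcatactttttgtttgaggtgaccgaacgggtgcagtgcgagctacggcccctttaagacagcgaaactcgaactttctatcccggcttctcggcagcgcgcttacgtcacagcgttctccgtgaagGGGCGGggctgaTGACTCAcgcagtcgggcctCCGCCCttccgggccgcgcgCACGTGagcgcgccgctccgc

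Both windows hold the GC box, *Mir9-3hg* also the cAMP response element, and *D730003I15Rik* also the AP-1 motif and the E-box. RefSeq gave a promoter for 103 of the 213 lincRNAs. Of these 52.4% hold the GC box, 42.7% CCAAT, 10.7% the E-box, 5.83% the cAMP response element, 4.85% AP-1, 12.6% TATAAA and 2.91% the MYB motif. In the same order the shares over the 27025 promoters of all genes in the table, expressed or not, were 35.9%, 37.9%, 7.24%, 1.88%, 7.93%, 14.2% and 4.36%. The median number of CG dinucleotides was 15 in the lincRNA promoters, 7 in all of them, 35 in that of *Mir9-3hg* and 28 in that of *D730003I15Rik*. A match is a description of the letters in the window and not of a bound factor.

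As transcripts the lincRNAs were shorter and had fewer exons than the mRNAs. Their longest annotated transcript had a median of 1627 bases and 3 exons, against 3388 bases and 9 exons for the protein-coding genes, and the median GC content was 47.1% against 49.8%. The change did not follow the number of exons. The 9 single-exon lincRNAs had a median of 0.13, the 94 with 2 exons 0.13 and the 110 with 3 or more 0.14. The median was 0.00 for 262 single-exon and 0.01 for 12742 spliced protein-coding genes. The presence of AATAAA near the end likewise made little difference, with a median of 0.14 for the 89 lincRNAs that have it and 0.13 for the other 124.

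The place of a lincRNA relative to its nearest protein-coding gene was recorded. Divergent starts within 1 kb were found for 37 lincRNAs, overlap with the coding gene for 46, a distance within 5 kb for 37 and a greater distance for 93. Their median changes were 0.14, 0.19, 0.15 and 0.11. The kit was not stated to keep strand, so that reads of a lincRNA that overlaps another gene cannot be told apart from those of that gene. Among the 176 pairs in which the coding neighbour also reached a mean RPKM of 1, the lincRNAs had a median of 0.14 and the neighbours 0.01, and 96 pairs differed in the same direction. In the 37 divergent pairs the neighbours had a median of -0.03, and 15 of them were higher.

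All 5 lincRNAs that were more than 1.5-fold lower and 5 of the 8 that were higher lay farther than 5 kb from a coding gene. This class holds 93 of the 213 lincRNAs. Of the class 5.38% were past 1.5-fold in each direction, against 1.69% lower and 1.57% higher among all genes. The 5 lower ones include *Gm42418* and *6030471H07Rik*, the latter with 21 reads in both libraries together. A link with position was not tested. Exon bases were shared with another long gene in 60 lincRNAs, a similar transcript of another gene existed for 11, and RefSeq listed 11 as protein-coding and 6 as pseudogenes. Without these, 80 lincRNAs in all, the median over the other 133 was 0.13, with 3 lincRNAs past 1.5-fold lower and 7 higher.

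At the edge of the filter, *Gm12762* (1.10 and 0.91 RPKM), *1700029M20Rik* (1.24 and 0.77) and *AY512931* (0.79 and 1.23) were just inside. *Gm15398* (0.94 and 1.05), *1700003M07Rik* (1.09 and 0.84) and *9330136K24Rik* (0.83 and 1.09) were just outside.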

How the data were processed

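RPKM values per gene of a control and a Bcas2F/-;V-cre library of P9 testes were taken as the authors deposited them. Per the labels and the study's methods, NEBNext Ultra libraries were aligned to mm10 with TopHat2 2.0.9 and counted per gene with HTSeq. The annotation, its gene lengths and the strand setting were not given in the sources used here. Ensembl ids were matched to GENCODE M21 (37606 of 39695). The members and gene lists were chosen with earlier results of these data known. Named were the 10 most abundant members, those on the list of known roles, up to 10 falls and rises past 1.5-fold with at least 30 reads, and 3 on each side of the filter. Whole reads were recovered by finding the total that the RPKM values were divided by and the whole-number gene length at which both RPKM values of a gene give whole reads (24210 of 24220 genes above 0). A gene's reads are right up to a whole factor, and the length was within 1 base of the annotated mean for 144 of 213 lincRNAs. They summed to 101.21% and 100.96% of those totals. The recovery and the direction of change were tested on simulated data. A count test was not run, since each group has 1 library. Similar transcripts were sought with BLAST+ 2.17.0, and values were computed with pandas 2.3.3 and scipy 1.17.1. Alternatives changed the pseudocount, scaling, filter and members.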

Additional observations from a re-analysis of the deposited data

How the results depend on the processing

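With 1 library per group no setting carries a test, and the direction of the median was the same under every alternative run. With a pseudocount of 0.1, 9 lincRNAs (4.2%) were past 1.5-fold lower and 21 (9.9%) higher, against 3.08% and 3.06% of all genes. The median change was 0.18. With 0.01 there were 11 (5.2%) and 26 (12.2%), against 3.27% and 3.31% of all genes, with a median of 0.18. Rescaling each library to a sum of 1000000 gave a median of 0.17. Without the filter, 1036 lincRNAs were compared. Past 1.5-fold, 8 were lower (0.8%) and 14 higher (1.4%), both below the 1.86% and 2.03% of all genes. The larger share of lincRNAs past 1.5-fold was not kept in this setting. It adds genes below a mean RPKM of 1, whose change the pseudocount of 1 narrows. The setting therefore cannot decide whether the larger share holds among them. A higher level at any fold was found for 638 (61.6%, against 54.8% of all genes), and the median was 0.029. At a mean RPKM of at least 5, over 50 lincRNAs, the counts were 2 (4.0%), 2 (4.0%) and 34 (68.0%). The same shares of all genes were 0.975%, 0.431% and 52.9%. Without the lincRNAs that share exons or sequence or are not long non-coding in RefSeq, an alternative chosen after seeing the data, 3 were past 1.5-fold lower and 91 were higher at any fold, from fewer genes. Centring all genes on 0, which shifts every change by 0.02, a minimum of 30 reads, and leaving out *Gm42418* and *Gm26917* (also chosen after seeing the data) kept every count within 1.5 times. Of the 11 named lincRNAs past 1.5-fold, 10 were so under every alternative, and none reversed. No paired analysis was possible because each group has 1 library. Depth limits the lincRNAs under 30 reads most, and the spread between animals is unknown.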
